A study of Mus musculus with 8 samples.

Results

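The genes described here encode the proteins of the cytosolic ribosome, and they were taken as the protein-coding mouse genes whose symbol is Rpl or Rps followed by a number and at most one of the letters a, x, y and l, with the stalk genes Rplp0, Rplp1 and Rplp2 included. The rule found 80 of 21883 protein-coding genes, 47 of the large subunit, 30 of the small subunit and 3 of the stalk. A ribosome is built from ribosomal RNA and a fixed set of these proteins, most of them in a single copy per subunit, and cells that leave quiescence raise ribosome production before they grow and divide. The genes lie scattered over the chromosomes, are short and are among the most strongly transcribed in most cells. Their transcripts typically begin within a run of pyrimidines, the terminal oligopyrimidine tract through which mTOR signalling controls their translation.

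The measurement was H3K27ac, the acetylated form of histone H3 that marks active promoters and enhancers, in satellite cells, the stem cells of skeletal muscle, of the mouse strain C57BL/6. The label FISC stands for cells taken fresh from untreated muscle, and ASC for activated cells from muscle injured with barium chloride (BaCl2), which kills muscle fibres and starts regeneration, 2.5 days earlier. Each condition had 2 H3K27ac libraries, each with a deposited MACS2 peak list on the mouse build mm10, and 4 input libraries were not analysed here. The labels name no genotype, transgene, age or sex, and they do not say whether replicates were separate animals, so p-values speak only of the spread among these libraries, which could be technical. For each gene, the length under peaks within 2 kb of either gene end was summed in kb per library. The question asked of these values is how far acetylation spread over ribosomal protein genes in ASC against FISC.

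The ASC lists covered more of the genome than the FISC lists, 49.2 and 57.7 Mb against 34.4 and 33.7 Mb. The means were 53.4 ± 6.03 and 34.0 ± 0.44 Mb (SD, n = 2), a ratio of 1.57, and the exact 2-sided permutation p was 0.333, the smallest that 2 libraries against 2 allow. Peak lists hold no read counts, so read depth is unknown and its part in the greater covered length was not tested. All 8 satellite cell markers examined were covered in FISC, summing to 24.4 and 25.7 kb, against 22.6 and 23.7 kb in ASC, where Calcr, a receptor of quiescent satellite cells, was at 0. These markers did not move in 1 direction. In the limma fit described below 2 of the 8 were called higher in ASC and 2 lower, Calcr among the lower. The shares over all genes tested were 26.4% and 3.61%, and the median difference of the 8 markers was -0.186 kb. Among markers of other cells, 3 of 5 endothelial genes were covered in some library (1.22 and 1.79 kb in ASC, 2.10 and 2.56 kb in FISC), with Cdh5 and Pecam1 at 0. Of the myeloid genes 2 of 5 were covered (1.87 and 3.85 kb in ASC, 1.55 and 1.05 kb in FISC), with Ptprc, Adgre1 and Lyz2 at 0. Of the lymphoid genes 2 of 5 were covered (1.12 and 1.53 kb in ASC, 1.33 and 1.16 kb in FISC), with Cd2 and Ms4a1 at 0. Of the fibro-adipogenic genes only Ly6a was covered (1.44 and 2.42 kb in ASC, 0 in both FISC libraries), and Pdgfra, Dcn, Col1a1 and Lum were at 0. The part of these cells in the values below was not tested.

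Promoter sequences were available for 60 of the 80 genes from RefSeq (assembly GRCm38.p6, to which mm10 corresponds). The 8 shown run from 100 bases before the listed start to the first 20 bases of the transcript. Capitals mark matches to the searched motifs on either strand and runs of at least 7 pyrimidines near the start. Rpl35 and Rps9 are shown because their covered length rose most among genes with a pyrimidine run at the start and because they were the only members still called higher after division by total covered length. Rpl41 and Rps10 are shown for the CCGGAAG motif of ETS factors, Rpl12, Rps6 and Rps19 for the palindrome TCTCGCGA, and Rpl3l as a member whose start lay under no peak in any library.
Rpl35 (chr2:39005112-39005231, - strand): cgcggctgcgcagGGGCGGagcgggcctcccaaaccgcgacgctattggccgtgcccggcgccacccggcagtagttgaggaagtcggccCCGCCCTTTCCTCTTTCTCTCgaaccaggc
Rps9 (chr7:3703941-3704060, + strand): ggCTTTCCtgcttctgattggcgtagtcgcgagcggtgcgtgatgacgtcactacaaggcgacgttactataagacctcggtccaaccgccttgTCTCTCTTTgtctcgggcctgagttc
Rpl41 (chr10:128549149-128549268, - strand): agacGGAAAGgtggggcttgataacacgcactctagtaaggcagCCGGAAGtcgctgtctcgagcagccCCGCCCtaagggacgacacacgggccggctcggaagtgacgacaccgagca
Rps10 (chr17:27635225-27635344, - strand): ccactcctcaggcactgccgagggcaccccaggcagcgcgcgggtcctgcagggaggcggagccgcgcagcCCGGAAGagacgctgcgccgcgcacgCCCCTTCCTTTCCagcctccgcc
Rpl12 (chr2:32961612-32961731, + strand): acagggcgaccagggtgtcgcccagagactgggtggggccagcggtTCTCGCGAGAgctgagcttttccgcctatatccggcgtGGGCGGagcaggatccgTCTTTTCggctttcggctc
Rps6 (chr4:86857348-86857467, - strand): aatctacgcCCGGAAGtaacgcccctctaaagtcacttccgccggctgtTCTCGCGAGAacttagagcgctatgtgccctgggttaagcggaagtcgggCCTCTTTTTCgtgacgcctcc
Rps19 (chr7:24884492-24884611, + strand): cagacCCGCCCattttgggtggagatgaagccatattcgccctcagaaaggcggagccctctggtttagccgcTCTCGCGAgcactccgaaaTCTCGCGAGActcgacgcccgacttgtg
Rpl3l (chr17:24727726-24727845, + strand): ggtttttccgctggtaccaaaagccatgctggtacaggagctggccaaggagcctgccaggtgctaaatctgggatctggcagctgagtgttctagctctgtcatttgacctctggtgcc

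The motifs were searched in both strands of the 300 bases of each promoter, 250 before the start and 50 after it. CCGGAAG occurred in 23 of the 60 ribosomal protein promoters (38.3%), against 11.9% of the 17491 promoters in the table. TCTCGCGA, which overlaps its own reverse complement, occurred in 9 (15% against 1.53%), and in the Rps19 stretch it stands at separate places. Ribosomal protein promoters thus held both motifs more often than promoters at large, while their median GC content was close to that of all promoters (56.8% and 56.3%). AAGATGG, the core bound by YY1, occurred in 15% against 6.35%, and GGGCGG, the Sp1 box, in 56.7% against 46.3%. The table also holds promoters of genes not tested in the fit below. Among tested genes GGGCGG was present in 33 members and absent from 24, against 6747 and 3635 of all genes, a lower share in members. CCGGAAG was present in 22 tested members and absent from 35, against 1872 and 8510, a higher share in members. Other motifs were about as frequent as elsewhere: TATAAA at 11.7% against 13.3%, the E-box CACGTG at 8.33% against 7.91%, the NRF1 palindrome at 1.67% against 1.33% and CTTTTTC at 6.67% against 5.63%. Pyrimidine-rich words were more frequent: CTCTTTC occurred in 26.7% against 7.69% and CTTTCC, which can overlap it, in 45% against 25.8%. A run of at least 7 pyrimidines on the coding strand within 20 bases of the start occurred in 35 of 60 promoters (58.3% against 29.3%). The first listed base was C in 33.3% against 13.7%. These shares describe the sequences, and no match shows that a factor is bound.

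Ribosomal protein genes were covered over a greater length in ASC than in FISC in the lists as deposited, but their median difference turned negative, at -0.338 kb, once each library was divided by its total covered length. As deposited, 77 of the 80 genes were covered in at least 2 libraries, the minimum for testing, and all 77 were covered in every library. Their median length under peaks was 2.31 and 2.71 kb in the ASC libraries and 1.82 and 1.81 kb in the FISC libraries. Both ASC medians lay above both FISC medians. The median difference was +0.719 kb, against +0.304 kb over the 12921 genes tested, and over all 80 members it was +0.671 kb. Members were also wider in FISC, with a median of the FISC means of 1.79 kb against 1.31 kb over all genes tested. The median ratio of ASC to FISC was 1.36 against 1.21. In short genes the windows of both ends join, so more of the gene is counted than in long genes. In limma with Benjamini-Hochberg adjustment over all genes tested, 36 of the 77 (46.8%) were called higher in ASC at an adjusted p under 0.05, against 26.4% of all genes, and 0 were called lower, against 3.61%. At an unadjusted p under 0.05 from limma, 50 were higher and 0 lower, against 40.3% and 6.11% of all genes. The values of the ASC libraries both lay above those of both FISC libraries at 70 of 77 genes (90.9%, against 62.1% of all genes). They both lay below at 1 gene, Rps23 (1.3%, against 11.0%).

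These counts rested on how the lists were scaled and on the FISC libraries. With the weakest peaks removed until every list covered the same length, 20 of 77 were called higher and 2 lower (15.8% and 13.1% of all genes), and the median difference was +0.491 kb against +0.185 kb. With division by total covered length, 2 were called higher and 17 lower (9.19% and 36.6% of all genes), and the median of -0.338 kb lay beside -0.345 kb over all genes. Lists of equal peak number gave 33 higher and 0 lower (25.3% and 4.22% of all genes), and the window round the start alone 34 of 76 higher and 0 lower (26.6% and 3.5% of all genes). In the start window the median difference was +0.502 kb, against +0.285 kb over all genes. Without FISC replicate 1 or FISC replicate 2, which leaves that condition with 1 library assumed to vary like the other, 4 and 2 were called higher, below the 6.56% and 5.29% of all genes. Their median differences there were +0.706 and +0.715 kb, so the sizes held while the calls did not.

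**Figure D1:**
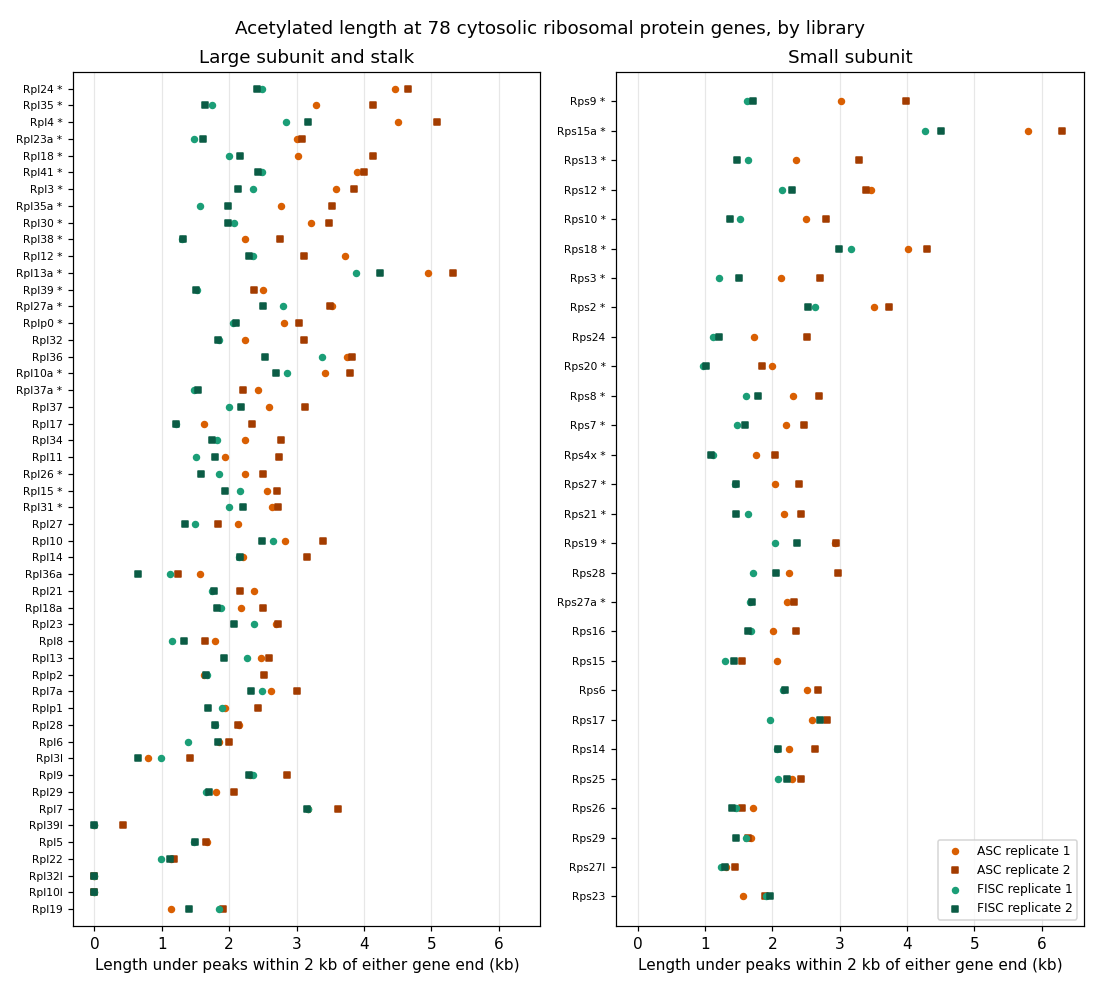
Length under H3K27ac peaks within 2 kb of either gene end (kb, horizontal axis) for 78 of the 80 genes in each of the 4 libraries, large subunit and stalk genes on the left and small subunit genes on the right, ordered by the difference of the means. Stars mark the 36 genes called higher in ASC by limma in the lists as deposited; ASC points lie to the right of FISC points at 69 of the genes drawn, an order that the division by total covered length turns round at the median (-0.338 kb).

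**Figure D2:**
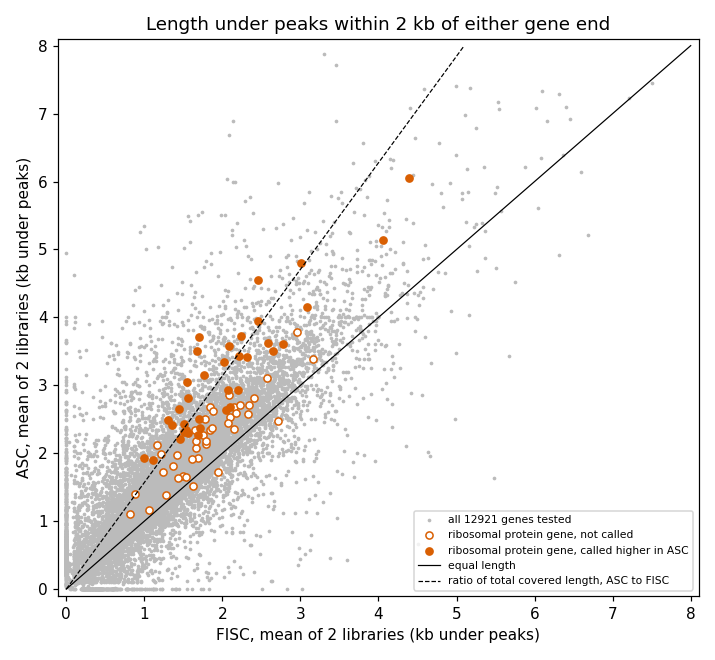
Mean length under peaks per gene in FISC (horizontal axis, kb, 2 libraries) against ASC (vertical axis, kb, 2 libraries), with all 12921 genes tested in grey and the ribosomal protein genes in orange, filled where called higher. Most ribosomal protein genes lie above the solid line of equal length and below the dashed line, whose slope is the ratio of total covered length (1.57), so that the direction reverses for them when lengths are divided by that total.

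Both subunits contributed to the count. Of 44 large subunit genes tested, 19 were called higher (43.2%, against 26.4% of all genes), with a median difference of +0.671 kb. Of 30 small subunit genes, 16 were called higher (53.3%), with a median of +0.743 kb, and of the 3 stalk genes 1 was called higher. Another protein-coding gene ended or began inside the window at 40 of the 77 genes, and peaks there cannot be assigned to a single gene. Genes without such a neighbour showed the same median difference as the whole set, +0.719 kb over 37 genes, with 17 called higher (45.9%). The pattern was thus present at windows that hold no other gene's end.

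The added length lay mostly inside the genes, past the start site. For the 57 tested genes with a listed start, 96.5% lay under a peak at 0.25 kb past the start in each of the 4 libraries. At 1 kb past the start 93.0 and 96.5% were covered in ASC and 78.9 and 82.5% in FISC, and of all genes 41.6 and 48.4% against 30.4 and 30.3%. The libraries parted further on: at 1.25 kb 82.5 and 89.5% were covered in ASC against 40.4 and 49.1% in FISC. At 1.5 kb the shares were 68.4 and 77.2% against 19.3 and 17.5%, or 39 and 44 genes against 11 and 10. All genes tested with a listed start (n = 10382) showed 18.1 and 22.3% against 11.9 and 11.3% there. Cutting the lists to equal covered length removes whole weak peaks and does not narrow those kept, so it could change little at strong peaks. With those lists the ribosomal protein genes showed 63.2 and 71.9% against 17.5 and 17.5%. All genes showed 16.0 and 19.2% against 11.8 and 11.3%. At 0.5 kb before the start the gap was smaller, 71.9 and 75.4% against 59.6 and 61.4%. Genes of this family are short, with a median of 3.17 kb against 22.5 kb over all genes tested, so positions far past the start approach their end.

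**Figure D3:**
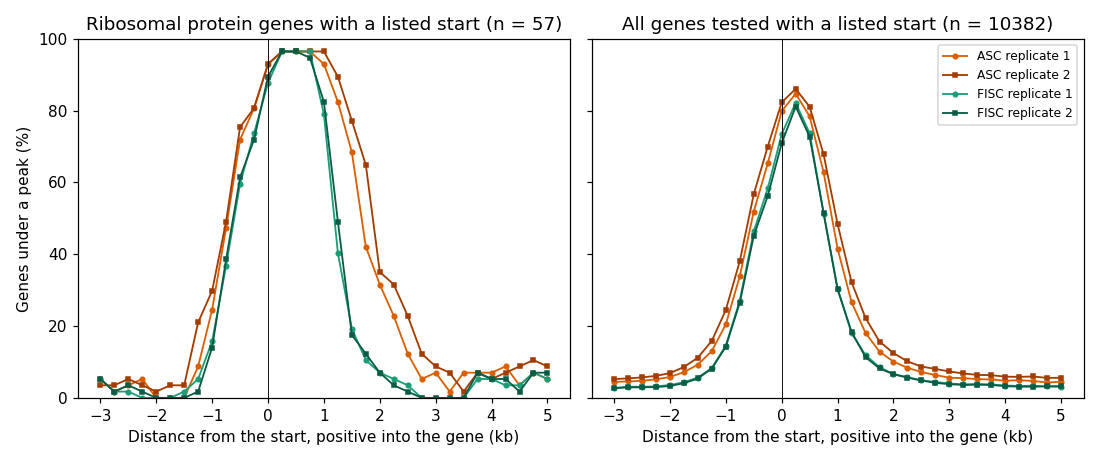
Share of genes under a peak (%, vertical axis) at each distance from the listed start (kb, positive into the gene), for 57 ribosomal protein genes on the left and 10382 genes tested on the right, 1 line per library. The ASC and FISC lines of the ribosomal protein genes part beyond 1 kb and are 54.4 percentage points apart at 1.5 kb, against 8.55 points over all genes. At 1 kb the gap of all genes is 14.7 points, wider than that of the ribosomal protein genes; no scaling was applied.

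The edges of the start-site peak were compared directly at the 55 genes covered 0.25 kb past the start in all libraries, a measure added after the coverage profile had been seen. The downstream edge lay at a median of 1.59 and 1.75 kb in ASC and 1.19 and 1.14 kb in FISC. It lay further out in both ASC libraries than in either FISC library at 47 of 55 genes (85.5%, against 57.3% of 8172 genes with such a peak), and the median shift was +0.456 kb against +0.159 kb. The same count was taken in other translation lists, described below. The downstream edge lay further out at 6 of 7 other cytosolic ribosomal protein genes (85.7%) and 5 of 5 genes of the elongation factor list (100%). It did so at 19 of 24 initiation factor genes (79.2%) and 17 of 23 ribosome biogenesis genes (73.9%). Of mitochondrial ribosomal protein genes 41 of 65 did (63.1%), near the 57.3% of all genes. Median shifts in these lists were between +0.2085 and +0.356 kb. The upstream edge shifted by a median of +0.109 kb, close to the +0.120 kb of all genes, and lay further out at 32 of 55 genes (58.2% against 53.7%). In limma, 9 of 55 downstream edges (16.4%, against 9.35% of all genes) and 2 upstream edges (3.64%, against 9.64%) were called further out. Of the 55 members 0 had an edge called nearer in ASC (0.698% and 0.33% of all genes), and at an unadjusted limma p under 0.05 there were 0 downstream and 1 upstream (2.21% and 1.84% of all genes). No downstream call was left without ASC replicate 2, FISC replicate 1 or FISC replicate 2, when the median shift was between +0.37 and +0.483 kb, so the calls for single genes rest on these libraries. At an unadjusted limma p under 0.05 those fits gave 24, 20 and 18 members' edges further out (21.1%, 18.3% and 18.3% of all genes in each fit), against 32 with all libraries (29.4% of all genes).

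The genes with called downstream edges were Rpl4, Rpl18, Rpl35, Rpl37a, Rpl39, Rps10, Rps12, Rps24 and Rps27. With a replicate block in the fit fewer downstream and fewer upstream edges were called, as given in the closing section. At Rpl4, whose protein lines the exit tunnel of the ribosome, the edge lay at 2.18 and 2.28 kb in ASC and 0.98 and 1.02 kb in FISC, a shift of +1.23 kb (SE 0.116, limma adjusted p = 0.00981). At Rpl35, a large subunit protein near the mouth of that tunnel, it lay at 2.43 and 2.75 kb against 1.2 and 1.06 kb (+1.46 kb, SE 0.170, limma adjusted p = 0.0161). At Rps12 it lay at 2.17 and 1.99 kb against 1.09 and 1.07 kb (+1.00 kb, SE 0.124, limma adjusted p = 0.0174). In each of these the edge in FISC stood about 1 kb into the gene and in ASC about 2 kb or more. The 2 called upstream edges were those of Rpl13a (from 0.0725 to 1.17 kb, limma adjusted p = 0.00999) and Rps19 (from 0.538 to 0.937 kb, limma adjusted p = 0.0413). At Rpl13a the upstream stretch was already under other peaks in FISC, over 1.11 and 0.922 kb against 1.08 and 1.26 kb in ASC. Near its start 1 peak was listed in each ASC library, and 2 and 3 peaks in the FISC libraries.

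**Figure D4:**
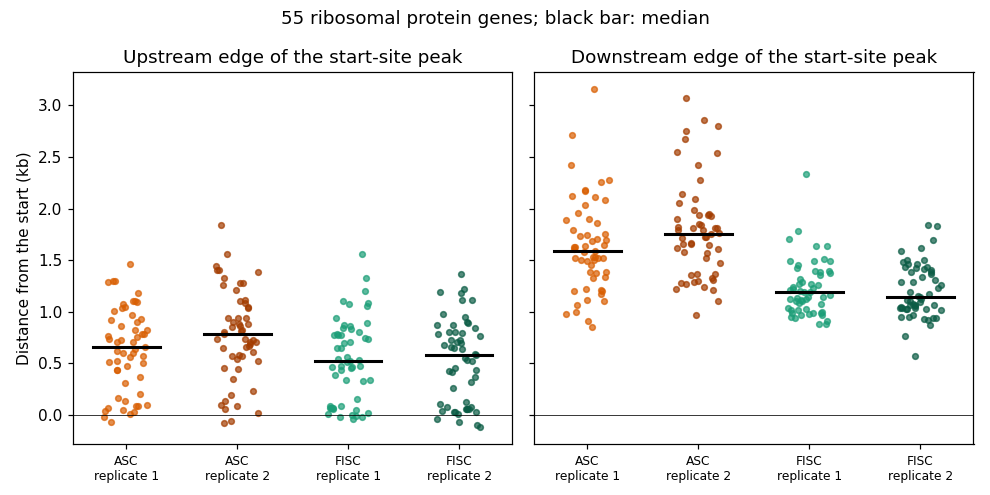
Distance from the start (kb) of the upstream edge (left) and downstream edge (right) of the start-site peak at 55 ribosomal protein genes, 1 point per gene and library; black bars are medians. Downstream medians are 1.59 and 1.75 kb in ASC and 1.19 and 1.14 kb in FISC, while upstream medians lie between 0.52 and 0.788 kb in all 4 libraries.

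Within the genes themselves, the covered share of the gene body had a median of 52.0 and 60.0% in ASC and 39.8 and 37.8% in FISC at the 57 genes with a listed start. The mean covered length inside the gene was 1.75 and 1.93 kb against 1.27 and 1.26 kb, and it was greater in ASC at 54 genes, smaller at 1 and equal at 2. Upstream of the start the means were 0.673 and 0.774 kb against 0.569 and 0.567 kb. Past the gene end most genes had no peak, with 41 and 33 at 0 in ASC and 45 and 45 in FISC. The gene body thus held the greater part of the added length, before any scaling.

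The 10 largest called rises, in the lists as deposited, were at Rpl24, Rpl35, Rps9, Rpl4, Rps15a, Rpl23a, Rpl18, Rpl41, Rpl3 and Rpl35a. Rpl24 (chr16:55966275-55971437), a large subunit protein that reaches across to the small subunit, was covered over 4.45 and 4.65 kb in ASC and 2.49 and 2.41 kb in FISC. The difference was +2.10 kb (SE 0.169, limma adjusted p = 0.00319), with about 1 kb of it past the gene end, where coverage went from 0.908 and 0.787 kb to 1.88 and 1.86 kb and where the window also holds ends of Zbtb11 and Gm6958. Rpl35 (chr2:39001581-39005131) was covered over 3.29 and 4.13 kb against 1.74 and 1.65 kb (+2.02 kb, SE 0.304, limma adjusted p = 0.0116). Rpl35 was among the most resistant to scaling: its difference was +1.55 kb (limma adjusted p = 0.0106) with lists of equal covered length and +0.854 kb (limma adjusted p = 0.0145) after division by total covered length. The pyrimidine run in its printed promoter spans the listed start.

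Rps9 (chr7:3703954-3706897), a small subunit protein, was covered over 3.03 and 3.99 kb in ASC and 1.63 and 1.72 kb in FISC (+1.83 kb, SE 0.338, limma adjusted p = 0.0192). The covered share of its body was 85.9 and 97.2% in ASC against 41.6 and 37.5% in FISC. The downstream edge of its start-site peak lay at 0.851 and 1.21 kb against 1.19 and 1.07 kb (-0.097 kb, limma adjusted p = 0.667), so the added length lay beyond that edge, in other peaks inside the gene, and upstream. With lists of equal covered length the difference at Rps9 fell to +0.068 kb (limma adjusted p = 0.852), whereas after division by total covered length it was +0.707 kb (limma adjusted p = 0.0308).

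Rpl4 (chr9:64173387-64178562) went from 2.85 and 3.18 kb in FISC to 4.5 and 5.09 kb in ASC (+1.78 kb, SE 0.271, limma adjusted p = 0.0119), in a window shared with ends of Zwilch and Snapc5. Rps15a (chr7:118104374-118116147) was the widest member, at 4.27 and 4.51 kb in FISC and 5.80 and 6.30 kb in ASC (+1.66 kb, SE 0.272, limma adjusted p = 0.0142), and its window round the start alone differed by +0.22 kb (limma adjusted p = 0.235). Rpl23a, which docks factors at the tunnel exit, was covered over 3.01 and 3.08 kb against 1.47 and 1.61 kb (+1.5 kb, SE 0.139, limma adjusted p = 0.00412). As deposited both ASC values lay above both FISC values at these 3 genes, as at 62.1% of all genes. The 3 were picked for large called rises, so this order adds no evidence. After division by total covered length 0 of the 3 kept its call, with limma differences of +0.0594 kb for Rpl4, +0.525 kb for Rpl23a and -0.670 kb for Rps15a.

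Rpl18 was covered over 3.03 and 4.13 kb in ASC and 2.00 and 2.16 kb in FISC (+1.5 kb, SE 0.382, limma adjusted p = 0.0425), with the ASC libraries 1.1 kb apart. It kept no call with a minimum −log10 q of 5 (+1.03 kb, limma adjusted p = 0.0614), with lists of equal peak number (+0.907 kb, limma adjusted p = 0.134) or equal covered length (+0.744 kb, limma adjusted p = 0.142), or after division (+0.241 kb, limma adjusted p = 0.412). Its call was also lost with windows of 1 and 5 kb, with no filter on covered genes and without FISC replicate 1 or FISC replicate 2. Rpl41, which encodes the smallest ribosomal protein and whose gene lay wholly under peaks in every library, was covered over 3.9 and 4.0 kb against 2.49 and 2.43 kb (+1.49 kb, SE 0.151, limma adjusted p = 0.00490). Its gain fell outside the gene, with 0.837 and 0.936 kb upstream of the start in ASC against 0.15 and 0.121 kb in FISC, and 2.0 kb past the end in both ASC libraries against 1.28 and 1.25 kb. The window of Rpl41 also holds an end of Zc3h10, so this gain cannot be assigned to Rpl41 alone. Rpl3, a protein at the peptidyl transferase centre, was covered over 3.59 and 3.85 kb against 2.35 and 2.13 kb (+1.48 kb, SE 0.180, limma adjusted p = 0.00713), in a window that holds no other gene's end. Rpl35a, mutated in some patients with Diamond-Blackfan anaemia, was covered over 2.77 and 3.53 kb against 1.56 and 1.98 kb (+1.38 kb, SE 0.307, limma adjusted p = 0.0303). Ends of other genes also lie in the windows of Rpl35a (Iqcg and Lmln), Rpl18 (Fam83e), Rpl23a (Tlcd1) and Rpl35 (Wdr38).

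Rises were thus found at broad and at narrow members alike. Among the narrowest in FISC, Rps20 was covered over 0.976 and 1.02 kb in FISC and 2.0 and 1.85 kb in ASC (+0.927 kb, limma adjusted p = 0.00908). Rps4x, X-linked and constitutively expressed, was covered over 1.13 and 1.09 kb against 1.76 and 2.04 kb (+0.796 kb, limma adjusted p = 0.0191). Rpl36a (+0.520 kb, limma adjusted p = 0.124) and Rpl22 (+0.108 kb, limma adjusted p = 0.506) were not called. Rpl22 (chr4:152324436-152334082), whose protein is dispensable for general translation, stood at 1.14 and 1.18 kb in ASC and 0.987 and 1.12 kb in FISC, a gap within its standard error of 0.117 kb. The summit of its strongest peak lay 1562 to 1626 bases past the listed start, so the 2 kb window cut that peak off. Over the whole gene 1.87 and 2.02 kb were covered in ASC and 1.585 and 1.629 kb in FISC, a difference that was not tested. Among the widest in FISC, Rpl13a (4.95 and 5.32 kb in ASC, 3.89 and 4.23 kb in FISC, +1.07 kb, limma adjusted p = 0.0325) was called higher as deposited and called lower after division by total covered length (-1.0 kb, limma adjusted p = 0.0474). Rps18 was called higher as deposited (+1.08 kb, limma adjusted p = 0.0171) and lower with lists of equal covered length (-0.616 kb, limma adjusted p = 0.0402), and it stood at -0.539 kb after division. Rpl7 was not called (+0.230 kb, limma adjusted p = 0.416). The 2 kb of its window upstream lay wholly under peaks in all 4 libraries, and with a window of 5 kb it was called higher (+2.24 kb, limma adjusted p = 0.00639), whereas after division by total covered length it was called lower (-1.28 kb, limma adjusted p = 0.00662).

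In the stalk, which recruits elongation factors to the ribosome, Rplp0 was covered over 2.82 and 3.04 kb in ASC and 2.06 and 2.10 kb in FISC (+0.850 kb, SE 0.151, limma adjusted p = 0.0173). The window of Rplp0 also holds an end of Gcn1. The smaller stalk proteins did not pass: Rplp1 stood at 1.93 and 2.43 kb against 1.89 and 1.69 kb (+0.390 kb, limma adjusted p = 0.209). Rplp2 stood at 1.62 and 2.52 kb against 1.67 and 1.66 kb (+0.407 kb, limma adjusted p = 0.353), with ASC replicate 1 below both FISC libraries. Without ASC replicate 2 its difference was -0.0435 kb.

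Of 6 members named for ties to signalling, disease or ubiquitin, 2 were called higher as deposited (33.3%, against 26.4% of all genes), and both stood below 0 after division by total covered length (Rps19 at -0.407 kb and Rps27a at -0.299 kb). Rps19, the gene most often mutated in Diamond-Blackfan anaemia, was covered over 2.93 and 2.94 kb in ASC and 2.04 and 2.36 kb in FISC (+0.738 kb, SE 0.170, limma adjusted p = 0.0329). Rps27a, made as a fusion with ubiquitin, was covered over 2.22 and 2.32 kb against 1.68 and 1.69 kb (+0.583 kb, SE 0.128, limma adjusted p = 0.0291). Both showed ASC values above all FISC values, as did 62.1% of all genes. Rpl5, Rpl11 and Rpl23, which bind Mdm2 when ribosome assembly fails, did not pass. Rpl5 stood at 1.67 and 1.66 kb against 1.48 and 1.5 kb (+0.175 kb, limma adjusted p = 0.297), Rpl11 at 1.94 and 2.73 kb against 1.51 and 1.79 kb (+0.688 kb, limma adjusted p = 0.134) and Rpl23 at 2.69 and 2.73 kb against 2.37 and 2.07 kb (+0.487 kb, limma adjusted p = 0.0793). Rps6, the substrate of S6 kinase, stood at 2.52 and 2.68 kb against 2.16 and 2.20 kb (+0.420 kb, limma adjusted p = 0.0784). After division by total covered length Rpl5 (-0.542 kb, limma adjusted p = 0.0322) and Rps6 (-0.663 kb, limma adjusted p = 0.0281) were called lower.

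Several paralogs had little or no covered length. Rpl10l and Rpl32l were under no peak in any library. Rpl39l had 0.416 kb in its window in ASC replicate 2, 0.289 kb inside the gene but beyond the windows in ASC replicate 1, and 0 in FISC. Rpl10l and Rpl39l are known from the male germ line. Their partners were covered in every library: Rpl39 over 2.50 and 2.37 kb in ASC and 1.53 and 1.5 kb in FISC (+0.922 kb, limma adjusted p = 0.0101), and Rpl10 over 2.82 and 3.40 kb against 2.65 and 2.48 kb (+0.543 kb, limma adjusted p = 0.138). Rpl3l, the striated muscle counterpart of Rpl3 (chr17:24727826-24736143), had 0 kb within 2 kb of its start in all 4 libraries. Its covered length of 0.797 and 1.42 kb in ASC and 0.985 and 0.639 kb in FISC (+0.294 kb, limma adjusted p = 0.395) lay round the other end, where the window holds an end of Msrb1. Rps27l, a target of p53, stood at 1.32 and 1.44 kb against 1.25 and 1.30 kb (+0.109 kb, limma adjusted p = 0.515). Its listed start lies inside the annotated gene, and round that start it was covered over 1.89 and 2.15 kb against 1.66 and 1.70 kb (+0.340 kb, limma adjusted p = 0.133). Its partner Rps27 stood at 2.04 and 2.39 kb against 1.45 and 1.46 kb (+0.758 kb, limma adjusted p = 0.0289). Of the 2 paralogs that could be tested, Rpl3l and Rps27l, 0 were called as deposited, also at an unadjusted limma p under 0.05, and after division by total covered length Rps27l was called lower (-0.501 kb, limma adjusted p = 0.0281). Of the 5 partners 4 were called higher as deposited (Rpl3, Rpl39, Rps4x and Rps27), and whether a paralog and its partner differed was not tested.

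Only 3 of the 77 genes had a negative difference in the lists as deposited, and none passed the test. Rps23 was covered over 1.57 and 1.90 kb in ASC and 1.91 and 1.97 kb in FISC (-0.212 kb, limma adjusted p = 0.351). Rpl19 stood at 1.14 and 1.90 kb against 1.85 and 1.40 kb (-0.107 kb, limma adjusted p = 0.808). Rpl19 has its listed start inside the annotated gene. Round that start alone its covered length was 2.12 and 2.49 kb in ASC and 2.04 and 2.18 kb in FISC. Rps23 and Rpl19 were named after their values were seen.

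Ribosomal protein genes carried some of the strongest peaks of each list. The median fold enrichment of the strongest peak within 2 kb of the start, the authors' own value, was 27.2 and 26.7 in ASC and 18 and 18.8 in FISC, beside medians over all peaks of 5.71, 5.18, 4.57 and 4.97. Within its own list that peak had a median percentile of 93.9 and 94.8 in ASC and 95.8 and 96.1 in FISC. Between 58 and 67 of the 76 or 77 genes with such a peak had it in the top 10% of their list. The summit lay downstream of the listed start at 53 of 56, 54 of 57, 54 of 56 and 54 of 56 genes in the order ASC replicates 1 and 2 and FISC replicates 1 and 2, at a median of 262, 284, 273 and 294 bases. The median summit thus lay in the same stretch in all 4 libraries, while the median width of these peaks was 2183 and 2429 bases in ASC and 1728 and 1713 in FISC. Within their own lists these widths had median percentiles of 89.9 and 90.4 in ASC and 90.8 and 90.2 in FISC. The lists hold different numbers of peaks, from 43092 to 54700, so neither percentile can be compared between conditions. Fold enrichment depends on depth and background, and its part in the wider peaks was not tested.

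Genes of the rest of the translation machinery were counted in the same fit, with the lists chosen by function. Of 8 other cytosolic ribosomal protein genes tested, 4 were called higher (50%, against 26.4% of all genes) and 0 lower (3.61% of all genes). Their median difference was +0.745 kb as deposited and -0.307 kb after division by total covered length. The genes called higher included Fau, made as a fusion of a ubiquitin-like protein with Rps30 (+1.23 kb, limma adjusted p = 0.00838), Rack1 and Rps3a1. Of 7 genes tested in the elongation factor list, 5 were called higher (71.4%) and 0 lower (median +1.41 kb as deposited and -0.0767 kb after division). Lists of 7 and 8 genes would seldom hold a lower call at the 3.61% of all genes. The list also held Tpt1, which encodes the translationally controlled tumour protein and is not itself an elongation factor, so these values are not of elongation factors alone. The largest were Tpt1 (+2.78 kb, limma adjusted p = 0.00339), Eef2, which moves the ribosome along the message (+2.19 kb, limma adjusted p = 0.00403) and Eef1a1, which delivers aminoacyl-tRNA (+1.61 kb, limma adjusted p = 0.0235). Tpt1, Eef2 and Eef1a1 also have transcripts of the pyrimidine-start class.

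Other lists lay nearer to the background of 26.4%. Of 30 initiation factor genes 7 were called higher (23.3%, median +0.406 kb as deposited and -0.507 kb after division), among them Eif6 (+2.35 kb, limma adjusted p = 0.00408) and Eif4b (+1.76 kb, limma adjusted p = 0.0119). Of 28 ribosome biogenesis genes 8 were called higher (28.6%, median +0.477 and -0.420 kb), among them Rrs1 (+1.45 kb, limma adjusted p = 0.0228) and Nop58 (+1.05 kb, limma adjusted p = 0.0147). Of 77 mitochondrial ribosomal protein genes 20 were called higher (26.0%, median +0.379 and -0.254 kb), led by Mrpl38 (+3.16 kb, limma adjusted p = 0.0106) and Mrps7 (+2.01 kb, limma adjusted p = 0.00493). Of 15 regulators 3 were called higher (20%, median +0.364 and -0.578 kb): Rheb, Sp1 and Mtor. Myc, already covered over 5.73 and 6.58 kb in FISC, stood at 6.63 and 7.14 kb in ASC (+0.733 kb, limma adjusted p = 0.223). In all 4 lists 0 genes were called lower by limma as deposited (3.61% of all genes). At an unadjusted limma p under 0.05 (6.11% of all genes lower) the only lower gene in them was 1 mitochondrial ribosomal protein gene. The elongation factor and other cytosolic lists held 0. Mitochondrial ribosomal protein genes were seldom covered far past the start: at 1.5 kb 4.41 and 4.41% of 68 were under a peak in ASC and 0 in FISC, whereas 41.7 and 58.3% of 24 initiation factor genes were covered in ASC and 20.8 and 16.7% in FISC. Of 23 ribosome biogenesis genes 52.2 and 52.2% were covered at 1.25 kb in ASC, against 13.0 and 4.35% in FISC. At 1.5 kb their shares were 17.4 and 21.7% against 0 and 8.70%.

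**Figure D5:**
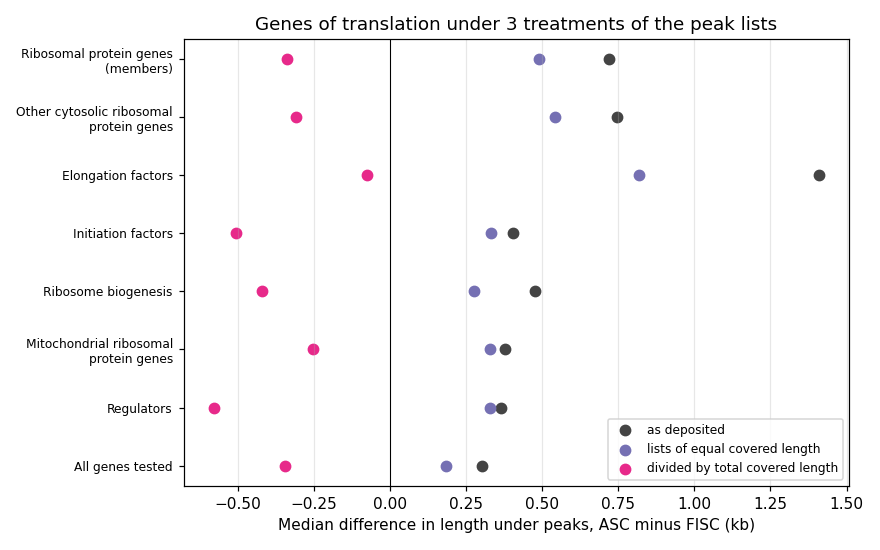
Median difference in length under peaks (ASC minus FISC, kb) for the ribosomal protein genes, 6 other lists and all genes tested, in the lists as deposited, in lists of equal covered length and after division by total covered length. The ribosomal protein genes stand at +0.719, +0.491 and -0.338 kb, beside +0.304, +0.185 and -0.345 kb for all genes; every list is negative after division by total covered length.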

How the data were processed

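H3K27ac was profiled by ChIPmentation, per the labels' protocols, in 2 ASC and 2 FISC libraries (single reads of 75 bases). Reads were demultiplexed with bcl2fastq 2.19, and BWA, Picard and MACS2 are named beside the mouse build mm10, per the submitters' processing notes. Other versions, the settings and how inputs were used: not given in the sources used here. In the deposited peak lists, the fold enrichment is a ratio at the summit, the p and q columns hold −log10 values, and the score is a whole number per peak, all computed by the authors per list. No column was read from other samples.

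Bases under peaks within 2 kb of either gene end were summed per protein-coding gene of the RefSeq table on GRCm38.p6 (Python 3.11.15, pandas 2.3.3, NumPy 2.4.6). A gene entered the fit if at least 2 libraries covered it, and limma 3.58.1 was run in R 4.3.3 (eBayes with trend, linear kb, no scaling), with Benjamini-Hochberg adjustment over all genes tested and a threshold of 0.05. The fit was checked on simulated data. It recovered most differences when many genes differed and none when few did, so a gene that was not called may still differ. The simulated shifts had a fixed size above the members' median difference of +0.719 kb, and upward and downward shifts were equally many. Smaller shifts were not simulated. The number of changed genes in the simulation was raised after the smaller number gave no calls. Listed starts came from the RefSeq promoter table. For 20 members missing there the end with more covered bases stood for the start, and they were left out of the profile, edge and body values. The edge of the start-site peak was followed outward from 0.25 kb past the start. A precision from read counting cannot be given, since depth is unknown.

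The members and lists were chosen with earlier results of these data known. Named members are the 10 largest called rises (and falls, of which there were 0), those with no peak, paralogs with their partners, stalk members, 6 members with ties to signalling, disease or ubiquitin and the 5 widest and 5 narrowest in FISC. Of 5 paralogs in the rule, 4 matched the annotation. From other lists 2 to 4 genes are named in order of absolute difference, with Myc, Rheb, Sp1, Mtor, Rack1 and Rps3a1 named besides, and a few genes are not reported here. Alternatives were windows of 1 and 5 kb, the start window alone, stricter peaks (−log10 q or fold of at least 5), lists of equal number or length, division by total covered length, log2(kb + 0.1), no filter, a replicate block and leaving out each library. The run of at least 7 pyrimidines, the first base and the edge fits were added after the data had been seen.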

Additional observations from a re-analysis of the deposited data

How the results depend on the processing

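Of the 31 named members tested, the log2(kb + 0.1) scale changed no call, the replicate block and lists of equal peak number changed 1 and 2 calls, and a minimum −log10 q of 5 changed 5. No median was taken from the log2 fit, since its differences are not in kb. Replicate numbers did not pair the libraries (r = -0.0231 between the replicate differences of ASC and FISC, over 12921 genes). With the replicate block 31 of the 36 members called higher kept that call, and 0 of them turned lower. The medians of the covered length and of both edges did not move. In that fit 3 downstream and 0 upstream edges were called further out, against 9 and 2. Leaving out each library gave 2 to 45 members called higher, 0 lower, medians of 0.55 to 0.852 kb, and 0 to 6 downstream and 0 to 4 upstream edge calls.

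A window of 1 kb gave 11 calls higher (14.3%, against 15.5% of all genes) and a median of 0.268 kb, with Rps4x at -0.0175 kb. The start window alone gave a median of 0.502 kb, against 0.285 kb over all genes. Without a filter on covered genes 10 of the 36 calls were kept. A window of 5 kb gave 31 calls higher of 78 (39.7%, against 30.7% of all genes), a minimum −log10 q of 5 gave 27 of 77 (35.1%, against 25.5%) and a minimum fold of 5 gave 25 of 77 (32.5%, against 26.5%). Lists of equal covered length gave 20 higher, 2 lower and a median of 0.491 kb, with Rpl36a at -0.882 kb and Rps18 at -0.616 kb. Division by total covered length gave 2 higher, 17 lower and a median of -0.338 kb, and 2 of the 36 calls kept. Under it the differences in kb were -0.753 for Rpl10, -0.221 for Rpl11, -1.0 for Rpl13a, -0.399 for Rpl22, -0.623 for Rpl23, -0.150 for Rpl3l, -0.542 for Rpl5, -1.28 for Rpl7, -0.264 for Rplp0, -0.518 for Rplp1, -0.461 for Rplp2, -0.670 for Rps15a, -0.539 for Rps18, -0.407 for Rps19, -0.0585 for Rps27, -0.299 for Rps27a, -0.501 for Rps27l and -0.663 for Rps6. Over the fits that each left out a library, Rpl3l ranged from -0.015 kb (without ASC replicate 2) to 0.603 kb and Rplp2 from -0.0435 kb (likewise) to 0.857 kb. The cause of these changes was not tested, except that shorter windows and cut lists hold fewer covered bases and fewer libraries leave fewer degrees of freedom. With 2 libraries per condition and no read counts, small differences could not be resolved.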

Other observations

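Members were also set side by side by the sequence of their promoter, over 11 splits of the 57 tested members in the promoter table, with no test. The split with the largest gap was CTTTCC, chosen here after its values were seen. Of 25 members with CTTTCC 20 were called higher in ASC (median difference +0.850 kb as deposited), and of 32 without it 10 were (+0.536 kb). Over all tested genes in the promoter table, 736 of 2727 with CTTTCC and 1992 of 7655 without it (26.0%) were called higher, with medians of +0.320 and +0.297 kb. Splits by the other promoter features lay closer together. The widest gap among those was at the E-box CACGTG, with medians of +0.529 kb over 5 members with it and +0.753 kb over 52 without it. Members with and without GGGCGG had medians of +0.774 and +0.671 kb. Members with and without the ETS motif CCGGAAG had medians of +0.718 and +0.738 kb, those with and without TCTCGCGA +0.738 and +0.733 kb, and those with and without a pyrimidine run near the start +0.758 and +0.692 kb.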
